A study of Mus musculus with 11 samples.

Results

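The regions described here are H3K27me3 peaks of mouse embryonic stem cells that lay outside every H3K4me1 and H3K9me3 peak, were poor in CpGs and carried an intermediate level of DNA methylation. They were picked from the merged H3K27me3 peak list on chromosomes 1 to 19 in steps. Of 17634 peaks, 13349 overlapped no H3K4me1 or H3K9me3 peak, 13099 of these were under 20 kb wide, and 12159 held fewer than 30 CpGs per kb. At least 20 CpG calls in the H3K27me3 library of 250000 cells were found in 10786, and in 5976 of those between 20 and 80% of these calls were methylated. The 5976 peaks are called the intermediate peaks below. The peaks left out at the last step were 3757 highly methylated and 1053 lowly methylated CpG-poor peaks, and they serve as the comparison.

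The study used CUT&Tag-BS, in which an antibody guides a transposase to chromatin with a histone mark and the cut fragments are bisulfite converted, so that each sequenced CpG is read as methylated or unmethylated. E14 is a line of mouse embryonic stem cells of 129/Ola background, and it was grown in medium with serum and leukemia inhibitory factor (LIF). No genotype or treatment differed between samples. H3K27me3 was measured with bisulfite in 4000, 20000, 100000 and 250000 cells and without bisulfite in 250000 cells. H3K4me1 and H3K9me3 were each measured with bisulfite in 250000 cells, sequenced in 2 runs, with 1 library each without bisulfite. Each cell number had 1 library of this 1 line, so the differences below are between libraries.

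H3K27me3 is placed by Polycomb repressive complex 2, which in embryonic stem cells sits mainly at CpG islands of silent developmental genes. CpG islands are stretches of dense CpGs that are usually free of DNA methylation, while scattered CpGs in the rest of the genome are usually methylated. A peak with an intermediate level can hold CpGs that are each methylated in some molecules, or unmethylated and methylated CpGs side by side, and calls at single CpGs separate these arrangements.

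The sequences below show what the intermediate peaks held at gene starts. Each is the 250 bases before the annotated start of a gene whose intermediate peak covered it, 5′ to 3′ on the gene's strand, from RefSeq on GRCm38.p6, with every CG in capitals. The first 3 come from the intermediate peaks with the most calls, and the last 2 from genes of the germline. They lie at chr10:52022252-52022501 (Vgll2, plus strand), chr15:80286988-80287237 (Cacna1i, plus), chr5:73006654-73006903 (Slc10a4, plus), chr3:40708621-40708870 (Slc25a31, plus) and chr3:102936101-102936350 (Sycp1, minus).
Vgll2: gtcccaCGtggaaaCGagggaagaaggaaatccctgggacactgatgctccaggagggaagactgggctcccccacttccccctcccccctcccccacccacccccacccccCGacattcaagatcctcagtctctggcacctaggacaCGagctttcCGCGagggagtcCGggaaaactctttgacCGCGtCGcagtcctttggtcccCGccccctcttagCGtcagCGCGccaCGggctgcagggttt
Cacna1i: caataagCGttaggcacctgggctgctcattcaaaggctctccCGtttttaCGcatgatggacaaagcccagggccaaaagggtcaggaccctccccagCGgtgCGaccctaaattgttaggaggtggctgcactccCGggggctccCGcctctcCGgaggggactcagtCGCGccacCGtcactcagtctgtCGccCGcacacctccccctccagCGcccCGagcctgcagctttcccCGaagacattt
Slc10a4: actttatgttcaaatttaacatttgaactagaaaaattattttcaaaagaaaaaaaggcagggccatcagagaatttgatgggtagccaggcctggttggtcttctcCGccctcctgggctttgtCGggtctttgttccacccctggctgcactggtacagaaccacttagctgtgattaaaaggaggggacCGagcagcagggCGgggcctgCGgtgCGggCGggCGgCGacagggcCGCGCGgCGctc
Slc25a31: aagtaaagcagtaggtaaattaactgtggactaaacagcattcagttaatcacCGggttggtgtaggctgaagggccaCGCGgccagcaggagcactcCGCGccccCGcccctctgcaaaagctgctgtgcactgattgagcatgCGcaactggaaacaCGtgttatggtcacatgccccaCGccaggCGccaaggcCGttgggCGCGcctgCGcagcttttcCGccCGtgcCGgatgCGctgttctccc
Sycp1: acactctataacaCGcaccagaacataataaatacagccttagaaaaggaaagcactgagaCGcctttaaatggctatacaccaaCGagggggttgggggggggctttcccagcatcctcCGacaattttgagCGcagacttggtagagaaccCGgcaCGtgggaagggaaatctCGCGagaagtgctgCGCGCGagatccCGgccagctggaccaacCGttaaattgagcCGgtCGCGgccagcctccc

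The stretches held 15, 16, 13, 18 and 17 CGs, although the peaks around them were CpG-poor as a whole. In the library of 100000 cells the Vgll2 stretch was methylated at 0.541% of 555 calls, and all 15 of its CpGs were at or below 20%. The Cacna1i stretch was at 3.26% of 797 calls, and its highest CpG was at 22.6%. The Slc10a4 stretch was at 9.20% of 674 calls, and 11 of its 13 CpGs were at or below 20%.
The whole peaks around these starts were at 21.2, 28.7 and 31.9%, so the stretches were lower than their peaks in all 3 genes. The germline starts printed above were different in level. The Slc25a31 stretch was methylated at 39.8% of 108 calls, with single CpGs from 10 to 83.3% among the 12 that had at least 5 calls. The Sycp1 stretch was at 61.5% of 135 calls, with 3 CpGs at or below 20%, 6 at or above 80% and a range from 0 to 100%. Other germline starts varied. The Ddx4 stretch was at 8.19% of 171 calls, with 23 of the 24 CpGs with at least 5 calls at or below 20%. A Tdrd1 stretch had 15 of its 22 CpGs at or below 20%. Another that overlaps it, with 11 CpGs that are all among these 22, was at 27.3% of 220 calls. A separate Tdrd1 stretch was at 85.7% of 14 calls, and that of Mov10l1 at 42.9% of 42 calls.

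The promoter table used here has entries on 18 of the 19 chromosomes, so the counts of promoters cover its entries only. Among its 31396 RefSeq stretches of 250 bases on these chromosomes, 1675 lay wholly inside an intermediate peak. They held a median of 9 CGs, against 6 over all stretches, 3 in the 208 inside highly methylated peaks and 18 in the 882 inside lowly methylated peaks. The motif CG, which reads the same on both strands, occurred at least once in 92.4% of all stretches, and 10 or more times in 38.3% of all and in 793 (47.3%) of those inside intermediate peaks. In the library of 100000 cells the 793 starts with 10 or more CGs were methylated at 6.04 ± 1.82% of calls (SD over 18 chromosomes). Of the 772 with at least 20 calls, 666 were at or below 20% and 6 at or above 80%. The level was 23.2 ± 8.82% for starts with 6 to 9 CGs, 48.5 ± 12% for 3 to 5, and 60.6 ± 16.4% for 0 to 2. Starts with many CGs inside intermediate peaks were thus mostly unmethylated and those with few were not.

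An intermediate peak had a median width of 3182 bp, with quartiles at 1537 and 6426 bp, and held a median of 14.8 CpGs per kb. Together the peaks covered 27.8 Mb. The highly methylated peaks were narrower, with a median of 1799 bp and 11.5 CpGs per kb, and the lowly methylated peaks were wider, with 6911 bp and 21.3 CpGs per kb. The intermediate peaks made up from 30.5 to 37.4% of the H3K27me3 peaks of a chromosome.

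Within the intermediate peaks the H3K27me3 libraries of 4000, 20000, 100000 and 250000 cells held 48440, 664217, 3135915 and 4552377 calls. Run 1 and run 2 of H3K4me1 held 66140 and 131984 calls there, and those of H3K9me3 held 16568 and 44816. The median number of calls per peak was 1, 24, 113.5 and 155 in the H3K27me3 libraries, 8 in H3K4me1 run 2 and 3 in H3K9me3 run 2. The rule kept H3K4me1 and H3K9me3 peaks out, which bears on the few calls of those libraries. Single peaks can be read in the larger H3K27me3 libraries, while 2799 intermediate peaks had no call at all in the library of 4000 cells.

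Summed over the intermediate peaks, the methylation level was 33.8 ± 3.82% in 4000 cells, 33.9 ± 2.11% in 20000 and 35.4 ± 2.33% in 100000 (SD over 19 chromosomes, which are not replicates of the cells). The library of 250000 cells, whose levels chose the peaks, was at 35.4 ± 2.23%. All 4 values lay within 1 SD of each other. As the mean of the levels of CpGs with 5 calls, 20000 and 100000 cells were at 20.6 and 42.2%, and at CpGs called in the 3 larger libraries at 32.8 and 29.4%, so the agreement holds for the summed calls. H3K4me1 run 1 and run 2 were at 32.4 ± 3.62 and 32.0 ± 3.59%, and H3K9me3 run 1 and run 2 at 55.1 ± 4.85 and 55.7 ± 4.1%. The highly methylated peaks were between 83.6 and 86.5% in the H3K27me3 libraries, at 76.1% in H3K4me1 run 2 and at 86.3% in H3K9me3 run 2. In 100000 cells the intermediate level ran from 31.5% on chromosome 14 to 40.5% on chromosome 15.

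**Figure D1:**
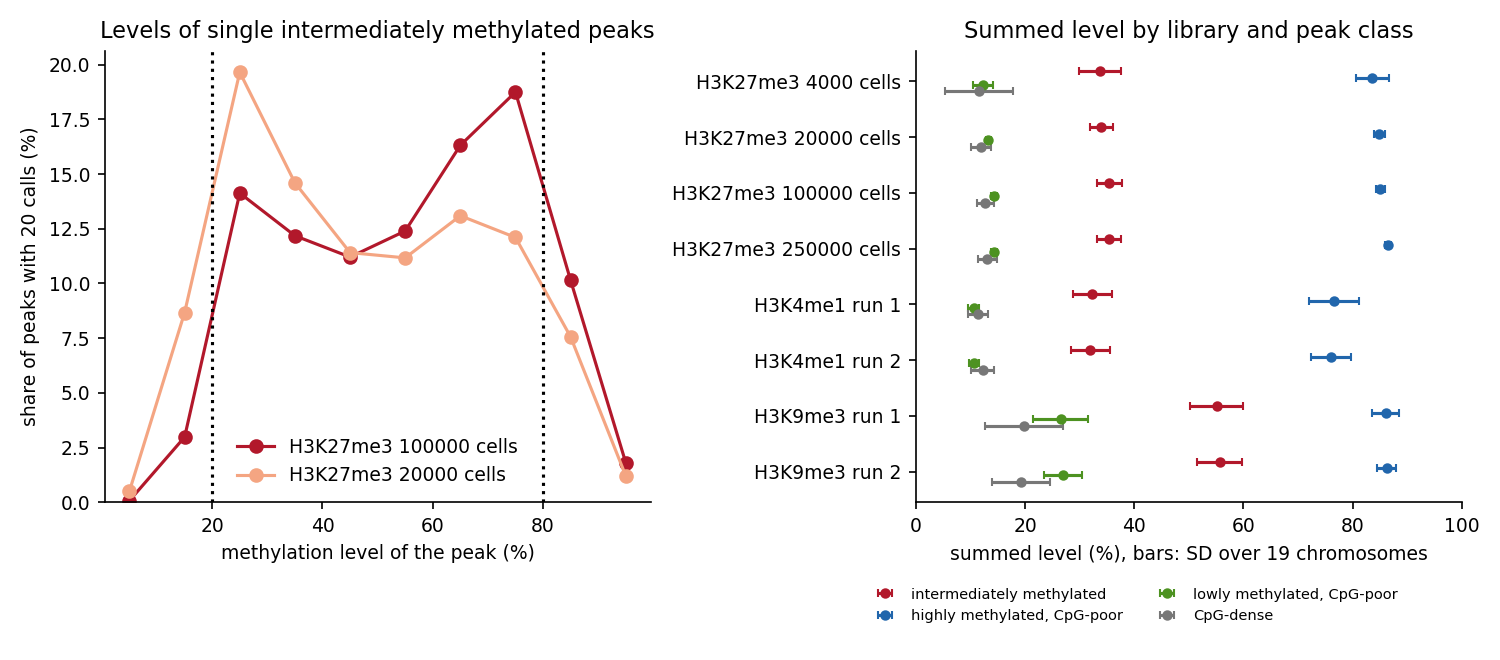
Left, the share of intermediate peaks (y axis, %) by their own methylation level (x axis, %) in the libraries of 100000 and 20000 cells. Right, the summed level (x axis, %) of 4 classes of H3K27me3 peaks in each bisulfite library (y axis), with bars for the SD over 19 chromosomes. The intermediate peaks stay between 32.0 and 35.4% in the H3K27me3 and H3K4me1 libraries and reach 55.7% in H3K9me3 run 2.

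Taken one by one, the peaks spread widely. In the library of 100000 cells 5540 intermediate peaks had at least 20 calls, and their median level was 57.8% with quartiles at 35.9 and 73.1%. Of these, 169 were under 20%, 4745 from 20 to 80% and 626 above 80%. In 20000 cells 3321 peaks had 20 calls, with a median of 45.5% and 2743 from 20 to 80%. The median over peaks was above the summed level, and peaks with more calls had lower levels. Across the 5540 peaks the Spearman correlation of level in 100000 cells with calls in 250000 cells was -0.53, with CpG density -0.45 and with width -0.26. Level and density share the same CpGs, and the levels come from libraries of 1 line. By density, peaks with under 12 CpGs per kb were at 57.3 ± 4.88%, those with 12 to 18 at 37.2 ± 3.04% and those with 18 to 30 at 30 ± 1.67%.

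The peaks next to the limits of the rule were picked by their levels in 250000 cells, so those levels are close by construction. The last peaks below 20% were at 19.99% in 250000 cells at both Col23a1 and Sh3rf1, with 17.6 and 18.9% in 100000 cells. The first inside, at Nms, was at 20% of 55 calls, with 25.3% in 100000 cells. Inside the upper limit, peaks at Aff3 and Gm28867 were at 80%, with 92.3% of 13 calls and 74.4% of 78 calls in 100000 cells. Just outside, a peak at Galnt9 was at 80.1%, with 87.5% of 321 calls in 100000 cells. The order in 100000 cells was thus not always that in 250000.

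Position relative to genes went with both shape and level. Of the intermediate peaks 39.4% (Wilson 95% interval 38.2 to 40.6%) lay within 1000 bp of an end of a gene, 29.6% inside a gene and 31.0% between genes. The gene table gives gene spans only, so exons and introns were not separated. The share near a gene end was 18% of highly methylated, 82.5% of lowly methylated and 45.2% of all H3K27me3 peaks. In 100000 cells the 2354 intermediate peaks near a gene end were at 31.8 ± 2.07%, the 1771 inside genes at 45.4 ± 6.91% and the 1851 between genes at 53.4 ± 4.31%. Their median widths were 5420, 2257 and 2195 bp and their median densities 16.8, 14.2 and 12.3 CpGs per kb, so position moved together with width and density.

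Intermediate peaks also differed from highly methylated ones in their surroundings. Another H3K27me3 peak lay within 10 kb of 55.2% of intermediate peaks, close to the 55.1% of all H3K27me3 peaks, and of 69.4% of highly and 28.9% of lowly methylated peaks. An H3K27me3 peak of 20 kb or more was that near to 5.07% of intermediate and 8.04% of highly methylated peaks. An H3K4me1 peak was within 10 kb of 23.4% of them, against 41.0% of all H3K27me3 peaks, and an H3K9me3 peak of 8.90%, against 10.1%; the rule left out overlapping ones.

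Summed over the intermediate peaks, the level changed along their length. Peaks with many calls weigh most in these sums: the 2354 near a gene end held 2454246 of the 3135915 calls in 100000 cells. Profiles of single peaks were not taken. With each peak cut into 10 equal bins, the central bins were at 27.1 ± 2.92% in 100000 cells and the outermost bins at 62.8 ± 4.81%. The nearest kb outside was at 75.0 ± 2.69%. CpG density was 18.6 per kb in the centre, 12.4 in the outermost bins and 10.7 in the nearest kb outside, and the calls per CpG were 12, 2.24 and 0.963. The centre was thus lower in methylation, denser in CpGs and more deeply read. Further out, at 4 to 5 kb, the level was 56.4 ± 7.67%, and 75.6% once CpGs in any other peak were left out. In H3K9me3 run 2 the same bins read 46.1 ± 7.29% in the centre, 67.8% at the edge and 78.8 ± 4.75% in the nearest kb outside, so the dip was also seen with that antibody.

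Highly methylated peaks showed no such dip, with 84.6% in the centre, 85.0% at the edge and 81.3% in the nearest kb. This class was set by a high level over the whole peak, which leaves little room for a dip. Lowly methylated peaks rose from 8.64% in the centre to 65.2% at the edge and 77.9% outside. Among the intermediate peaks the centre was at 24.5% near gene ends, 34.2% inside genes and 47.3% between genes.

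**Figure D2:**
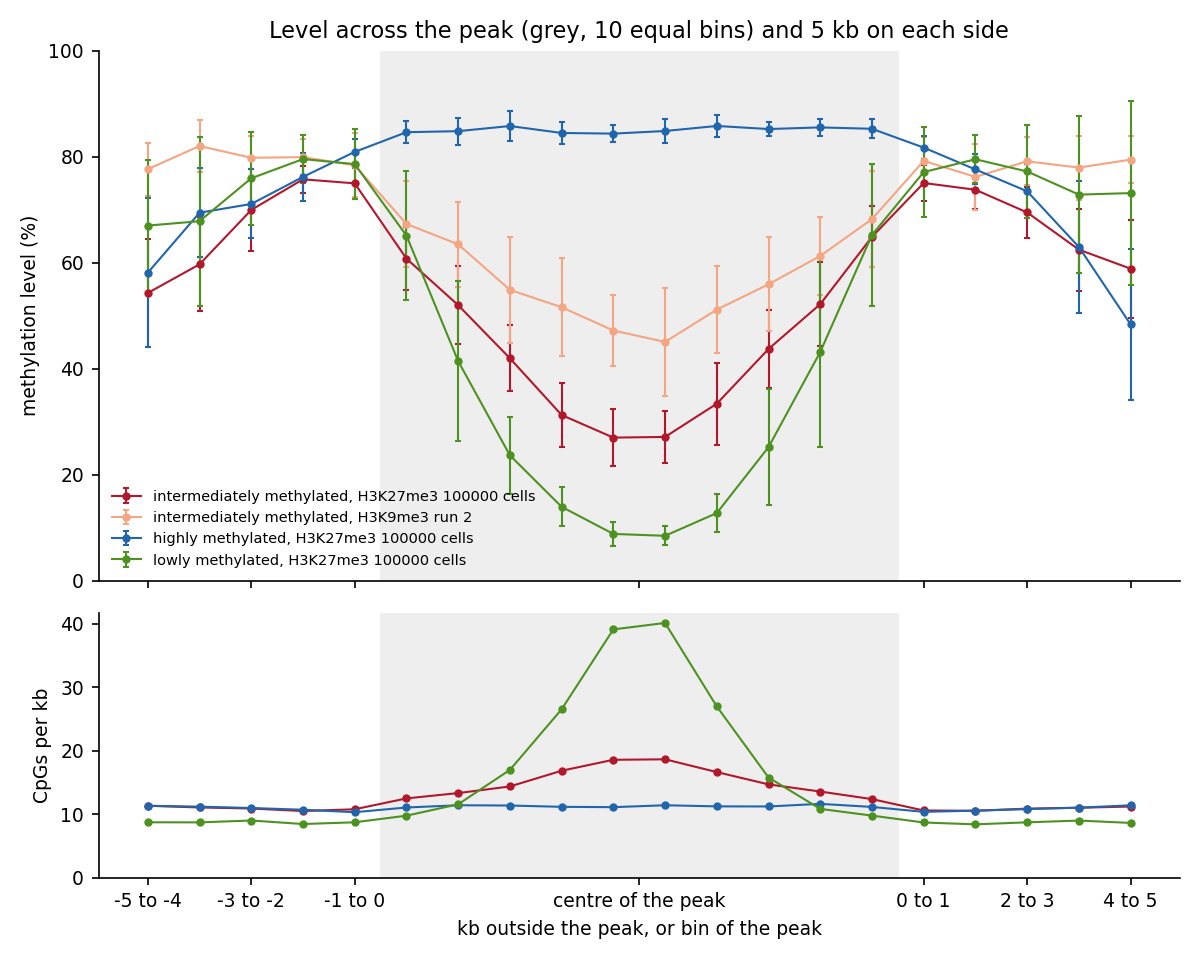
Methylation level (%) and CpG density (CpGs per kb) across 10 bins of each peak and 1-kb steps of 5 kb on both sides, for intermediate peaks in 100000 cells and in H3K9me3 run 2 and for highly and lowly methylated CpG-poor peaks in 100000 cells. Lines are summed levels; the intermediate peaks fall from 75.0% in the nearest kb outside to 27.1% in the centre while the highly methylated peaks are at 84.6% in the centre.

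Inside the peaks, the level of a single CpG went with the crowding of CpGs around it. CpGs of intermediate peaks with no other CpG within 100 bp were at 78.4 ± 1.68% in 100000 cells. The level was 76.5% with 1 such neighbour, 74.3% with 2, 66.5% with 3 to 4 and 48.6% with 5 to 7. The 108735 CpGs with 8 or more neighbours were at 11.2 ± 1.61%, and they held 15.7 calls per CpG against 3.51 for isolated CpGs. The step was found in each position. Isolated CpGs were at 79.4, 76.9 and 76.6% near gene ends, inside genes and between genes, and crowded CpGs at 10.4, 16.1 and 16.9%. The 3 positions, which differed by over 20 points in their summed levels, thus differed by under 7 points among CpGs of like crowding at both extremes of this window. With 250 bp on each side the CpGs with 8 or more neighbours were at 22.4, 33.7 and 38.9% near gene ends, inside genes and between genes, a wider gap.

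**Figure D3:**
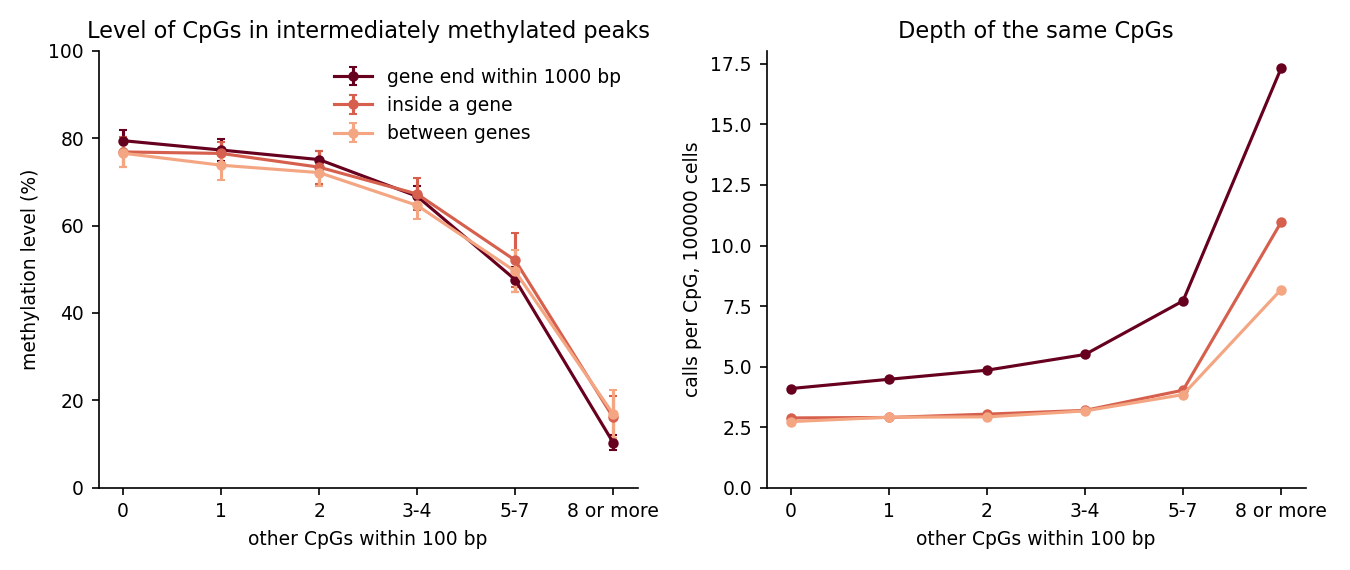
Level (%, left) and calls per CpG (right) of CpGs in intermediate peaks in 100000 cells, by the number of other CpGs within 100 bp, for peaks near gene ends, inside genes and between genes. Bars are the SD over 19 chromosomes; levels fall from above 76% for isolated CpGs to below 17% for those with 8 or more neighbours in each position.

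Levels of single CpGs were read where at least 10 calls stood behind them in 100000 cells, which held for 94634 CpGs in 2616 intermediate peaks. Of these, 59.9 ± 3.11% were at or below 20%, 17.1 ± 1.83% at or above 80% and 23.0 ± 1.86% in between. Depth is higher where levels are low, so the shares moved with the minimum: with 5 calls they were 45.3, 30 and 24.7%, and with 20 calls 72.3, 8.02 and 19.7%. In each setting under 25% of CpGs had an intermediate level of their own. In highly methylated peaks, which were picked by a high level, the shares at 10 calls were 2.71, 77.9 and 19.3% over 1401 CpGs.

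Peak by peak, 2685 intermediate peaks had at least 10 CpGs with 5 or more calls. In 1361 of these (50.7%, Wilson 95% interval 48.8 to 52.6%) at least 20% of the CpGs were at or below 20% and at least 20% at or above 80%. Only 271 (10.1%) had most of their CpGs in between. At least 1 CpG on each side was found in 2497 of the 2685. This was not particular to them, as it was also found in 871 of 939 lowly and 141 of 395 highly methylated peaks with as many such CpGs. The share of split peaks was 55.4% near gene ends, 42.5% inside genes and 43.7% between genes, against 1.77% of the 395 highly methylated peaks and 13% of the 939 lowly methylated ones. The latter classes were set by the level of the whole peak, which by itself limits how many CpGs lie at the other extreme. Their low shares are thus partly fixed by the rule. The SD of CpG levels within a peak had a median of 35.4 points in intermediate, 31.6 points in lowly methylated and 18.6 points in highly methylated peaks.

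The contrast was strongest in peaks at or inside Tram1, Slc35f4 and Gm30515, whose CpG levels had SDs of 50.7, 50.8 and 50.3 points. Only CpGs with at least 5 calls were counted, which were 15 of 80, 13 of 59 and 10 of 38 CpGs in these peaks. Tram1 (chr1:13589765-13593335) is a gene for a membrane protein of the endoplasmic reticulum. Of the 15 CpGs counted there, 9 were at or below 20%, 6 at or above 80% and 0 in between, with 42.9% over all calls of the peak. The smallest SDs were those of peaks at Rab36 (4.34 points), Htr5a (7.86), a serotonin receptor gene, and Armc12 (7.98). All 17 CpGs counted at Rab36 were at or below 20%, and the peak as a whole was at 12.6% in 100000 cells against 21.7% in 250000.

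Pairs of calls gave the same picture at a lower minimum depth. Pairs at 1 CpG need at least 2 calls there, and pairs at different CpGs need 1 call at each. The values thus rest on different sets of CpGs. For 2 calls drawn at 1 CpG of an intermediate peak in 100000 cells, 24.6 ± 0.769% differed in state. For 2 calls at different CpGs of a peak, 42.5 ± 0.755% differed, which was 17.8 ± 1.18 points more. Calls of 1 library can come from 1 fragment or its copies. Of pairs with 1 call from the library of 100000 and 1 from that of 20000 cells at the same CpG, 25.2 ± 1.16% differed. In highly methylated peaks the values were 19.7% at 1 CpG and 24.2% at different CpGs. In lowly methylated peaks they were 12.4 and 38.6%, a wider gap of 26.2 points. The level limits of both classes by themselves restrict how often calls can differ. The lower disagreement in highly methylated peaks is thus partly fixed by the rule.

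Disagreement in intermediate peaks grew with distance. It was 27.8 ± 1.25% for CpGs up to 50 bp apart, 32.1 ± 1.27% for 51 to 150 bp, 37.0 ± 1.04% for 151 to 500 bp and 44.2 ± 0.976% for 501 to 1000 bp. From 1001 to 2000 bp it was 47.6 ± 1.74% and beyond that 46.7 ± 1.77%, so no further rise was seen beyond 2000 bp. The distances hold different peaks, with 5918 up to 50 bp, 4813 from 1001 to 2000 bp and 3618 beyond. Narrow peaks have no distant pairs, so distance and peak width were not separated. In highly methylated peaks, whose high level by itself bounds it, disagreement moved only from 21.6 to 25.4% over the same distances. Near gene ends it reached 52.5% at 1001 to 2000 bp, and inside and between genes 44.5 and 42.7%.

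**Figure D4:**
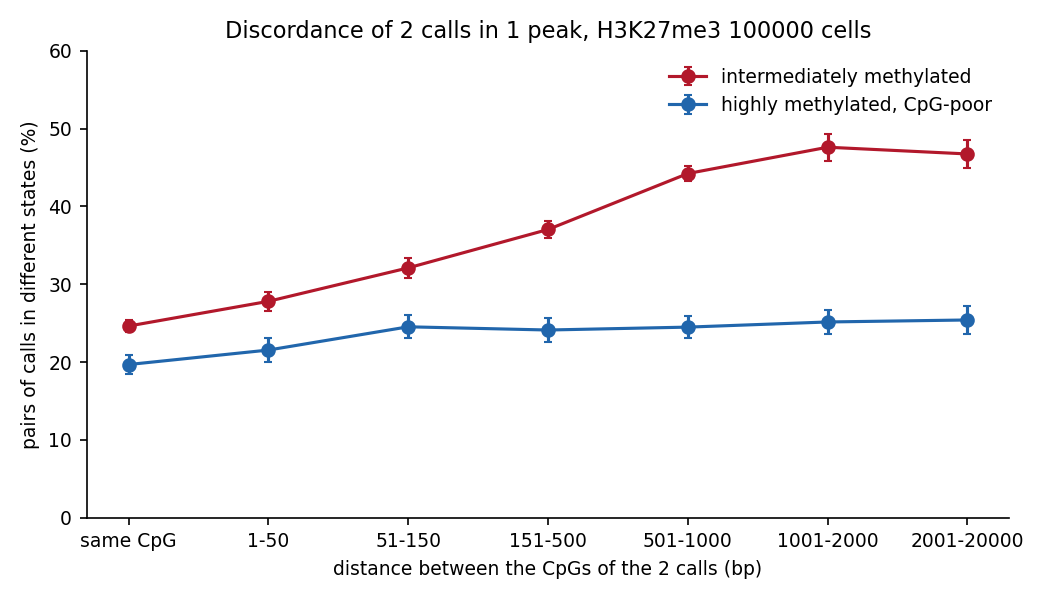
Share of call pairs that differ in state (y axis, %) at 1 CpG and by distance between CpGs (x axis, bp) in 100000 cells, for intermediate and highly methylated peaks, with bars for the SD over 19 chromosomes. The intermediate peaks climb from 24.6% at 1 CpG to 47.6% at 1001 to 2000 bp while the highly methylated peaks stay between 19.7 and 25.4%. Peaks narrower than a distance do not enter it.

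The peak with the most calls in 100000 cells lay at Lmx1a (chr1:167683322-167701179), a homeobox gene of midbrain dopamine neurons. It was methylated at 25.3% of 277 calls in 4000 cells, 27.1% of 1976 in 20000, 23.9% of 10946 in 100000 and 23.7% of 17734 in 250000. In H3K4me1 it was at 12.5% of 64 and 9.82% of 163 calls, and in H3K9me3 at 58.3% of 24 and 63.2% of 38 calls. The H3K27me3 libraries lay within 4 points, the H3K4me1 runs below all of them and the H3K9me3 runs above. Of its CpGs with 5 calls in 100000 cells, 174 were at or below 20%, 97 in between and 50 at or above 80%.

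Among the other peaks with most calls were those at Vgll2 (chr10:52018013-52033243), a cofactor of TEAD factors in muscle, at Ebf2 (chr14:67223891-67242502), a transcription factor of brown fat and neurons, and at Nppc (chr1:86660221-86679110), which codes for C-type natriuretic peptide. Vgll2 was at 28.5, 21.9, 21.2 and 21.7% in the H3K27me3 libraries of 4000, 20000, 100000 and 250000 cells. Ebf2 was at 22.4% in 20000 and 21.7% in 100000 cells, where 281 CpGs were at or below 20%, 111 in between and 39 at or above 80%. Nppc was at 38.5, 34.1, 27.1 and 27.8%, and held 97 CpGs at or below 20%, 27 in between and 86 at or above 80%. Vgll2 held 138, 66 and 41 CpGs in these classes. The 3 peaks thus differed in make-up: CpGs at or above 80% were few at Ebf2 and Vgll2 and nearly as many as low ones at Nppc.

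Lists of genes showed which genes the peaks touched. An intermediate peak lay at or within 1000 bp of 2743 of 20665 protein-coding genes (13.3%). Of 88 homeobox genes and other developmental regulators 9 (10.2%) had one. An H3K27me3 peak outside the rule for its width, its overlap with H3K4me1 or H3K9me3 peaks or its few calls lay at 85 of them. Pax7, a regulator of muscle stem cells, had 3 intermediate peaks, at 93.0% of 43, 79.4% of 141 and 85.1% of 415 calls in 100000 cells. Runx3, a transcription factor of neurons and blood, had one inside the gene (chr4:135126431-135131532) at 51.7%, one at an end (chr4:135168880-135180186) at 34.3% and another at 90% of 20 calls. The heart factor Tbx5 had 3, at 77.5, 50.3 and 93.3%, and Ebf3 had one at 64.4%. Over the list's 16 peaks with 20 calls the median was 59.9%, near the 57.8% of all intermediate peaks.

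Genes of ion channels, transmitter receptors and synapses touched intermediate peaks more often, with 37 of 66 genes (56.1%) and 74 peaks, of which 67 had 20 calls and a median of 45.9% in 100000 cells. These genes are long, and no correction for length was made. The peak at Cacna1e (chr1:154721125-154733653), which codes for a calcium channel of neurons, was at 36.9% of 84 calls in 4000 cells, 24.4% of 877 in 20000, 27.4% of 5101 in 100000 and 29.5% of 7352 in 250000. The other 3 intermediate peaks of that gene were at 83.3, 57.7 and 45.3% in 100000 cells. Cacna1i, a T-type calcium channel, had 8 such peaks: the one over its start was at 28.7%, and the other 7 were between 51.1 and 83.3%. Peaks at Kcnk2, a potassium channel, Grm7, a glutamate receptor, and Htr1b, a serotonin receptor, were at 23.6, 19.6 and 20.3%. Within Cacna1i the peak at the start was thus the lowest of the gene.

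Of 48 signalling ligands and receptors 13 (27.1%) touched an intermediate peak. Among the ligands, Gdf10, of the BMP family, had peaks at 26.4 and 87.5% in 100000 cells, Wnt2 one at 39.0%, Wnt3a a pair at 64.4 and 83.3%, and Wnt7b one at 74.9%. Among the receptors, Kdr, the main VEGF receptor of blood vessels, was at 27.8% and Epha3 at 24.8%. The peak at Kdr (chr5:75969952-75986136) held 85 CpGs at or below 20%, 24 in between and 73 at or above 80%. The 3 lowest of these levels were those of peaks over 14 kb wide. Over the list's 14 peaks with 20 calls the median was 65.5%.

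Of 47 imprinted genes, which are expressed from 1 parental copy, 10 (21.3%) touched an intermediate peak. Peaks at the neighbouring genes Ndn (chr7:62344847-62351919) and Magel2 (chr7:62373940-62382977) were at 25.5 and 28.0% in 100000 cells. The peak at Igf2r and Airn (chr17:12766593-12773001) was at 25.7%, with 93 CpGs at or below 20%, 16 in between and 24 at or above 80%. Rian and Smoc1 were at 30.5 and 31.5%, and Herc3 at 14.9%. Higher levels were found at Usp29 (58.4%), at another pair of Smoc1 peaks (72.2 and 74.3%) and at Kcnk9 (85% of 20 calls). Over the list's 11 peaks the median was 30.5%. The calls carry no parental origin, so the 2 copies were not told apart.

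Genes of the germline, many of which are kept silent in somatic cells by DNA methylation, touched intermediate peaks in 7 of 17 cases (41.2%), each at an end of the gene. Their 8 peaks were between 24.5 and 78.7% in 100000 cells, with a median of 56.3%. The lowest of these, at an end of Tdrd1, also covered the start of Vwa2, which is not on the list. The stretch before the Vwa2 start was at 0.39% of 1282 calls in 100000 cells. The peak at Sycp1 (chr3:102934786-102940635), a protein of the synaptonemal complex, was at 18.4% of 38 calls in 4000 cells, 50.0% of 352 in 20000, 48.9% of 1267 in 100000 and 49.9% of 1911 in 250000. In H3K4me1 it was at 30.8% of 13 and 27.6% of 29 calls, and in H3K9me3 at 53.7% of 54 and 55.1% of 196 calls. The 3 larger H3K27me3 libraries were within 2 points, and the H3K9me3 runs lay 3 to 7 points above them.

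Unlike the peaks with most calls, Sycp1 had most of its CpGs in the middle: 18 at or below 20%, 54 in between and 21 at or above 80%. Slc25a31, a mitochondrial carrier of the testis, was at 71.4%, with 5, 22 and 24 CpGs in these classes. Tdrd1, a gene of the piRNA pathway, touched a peak at 52.2% and another at 24.5%. The Tdrd1 stretches described above lay in the former, and the latter covered the start of Vwa2. The piRNA helicase Mov10l1 was at 78.7% and the germ cell helicase Ddx4 at 43.7%. Of 12 genes active in embryonic stem cells 0 touched an intermediate peak; 11 had an H3K4me1 peak within 1000 bp of an end, and the rule leaves out peaks that overlap one. The lists were put together with results of these data known, and no list was tested.

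Single peaks agreed between the libraries of 100000 and 20000 cells. Across 3319 intermediate peaks with at least 20 calls in each, the Pearson and Spearman correlations of the levels were both 0.90, over peaks of 1 cell line that share CpGs and density. The median absolute difference was 5.38 points. By Fisher's exact test on calls, two-sided, with Benjamini-Hochberg adjustment over 9823 peaks at 0.05, 222 (6.69%) were higher in 100000 cells, where 6.89% of all peaks tested were, and 84 (2.53%) higher in 20000, against 2.69%. Both shares were close to those of all peaks. The summed level was 32.9% in 20000 and 34.2% in 100000 cells. At CpGs called in both libraries the direction turned, with 29 of 3141 (0.923%) higher in 100000 cells, against 0.909% of all peaks, and 145 (4.62%) higher in 20000, against 5.58%. The levels there were 32.1% in 20000 and 28.9% in 100000 cells. With each shared CpG given equal weight the levels were 46.3 and 46.2%.

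The largest called differences were at peaks with 20 to 29 calls in 20000 cells. Peaks inside Gm33359 and Notch3, a receptor gene, were 54.1 and 46.7 points higher in 100000 cells, and one at Ky 41.3 points higher. Peaks at Faim and inside 2810032G03Rik were higher in 20000 cells, with levels of 87 and 83.3% there against 29.8 and 35.0% in 100000. In 250000 cells Gm33359 and Notch3 were at 42.6 and 51.9%, between the other libraries, and Faim at 32.0%, near 100000. At CpGs called in both libraries the differences at Gm33359, Notch3, Faim and 2810032G03Rik were 8.04, 42.5, -11.1 and -33.3 points, and none of these 4 passed.

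Set against H3K9me3 run 2, 1457 intermediate peaks had at least 10 calls in both libraries. H3K9me3 was higher in 287 (19.7%) by Fisher's exact test adjusted over 5247 peaks, where it was in 25.0% of all peaks tested, and lower in 63 (4.32%), against 3.2%. The summed levels were 32.9% in H3K27me3 and 51.7% in H3K9me3, and the median difference per peak 6.96 points. At CpGs called in both libraries H3K9me3 was higher in 157 of 1342 (11.7%), against 16.8% of all peaks, and lower in 6 (0.447%), against 0.388%, with levels of 30.6 against 49.8% and a median of 8.48 points. With each shared CpG given equal weight, the levels were 49.1% in H3K27me3 and 51% in H3K9me3, with a median of 1.29 points. The direction was the same in all 3 forms, and its size rested on how calls were spread over the CpGs. With run 1 in place of run 2, 430 could be tested, of which 62 (14.4%) were higher, against 19.7% of all peaks tested, and 11 (2.56%) lower, against 1.57%.

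The peaks that differed most rested on 10 to 21 H3K9me3 calls. Nppc was at 27.1% in H3K27me3 and at 100% of 10 calls in H3K9me3 run 2, with 72.7% of 11 calls in run 1. The difference of 72.9 points in run 2 had an adjusted p of 2.46e-05 by Fisher's exact test, and no value at shared CpGs. The peaks at Lpin1, Arhgef4 and Galnt14 were 75.7, 75.0 and 73.8 points higher in H3K9me3, and at shared CpGs only 4.83, 11.5 and 6.31 points higher, which did not pass. Serping1, which codes for the inhibitor of complement C1, was at 71.7% of 873 calls in H3K27me3 and at 4.76% of 21 calls in H3K9me3. At shared CpGs the difference at Serping1 was -5.49 points and did not pass. Of the 3 largest negative differences that had a value at shared CpGs, that at Zfp536, a zinc finger gene, still passed at -59.8 points, and that at Slc15a3 was -6.54 points and did not.

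Set against H3K4me1 run 2, 2784 intermediate peaks could be tested. H3K4me1 was higher in 49 (1.76%), where it was in 5.57% of 9270 peaks, and lower in 594 (21.3%), against 26.4%. The summed levels were 32.7% in H3K27me3 and 30.4% in H3K4me1, and the median difference was -8.88 points. At CpGs called in both libraries 112 of 2650 (4.23%) were higher in H3K4me1, against 10.5% of all peaks, and 39 (1.47%) lower, against 3.54%, with levels of 20 and 29.2% and a median of 1.83 points, the opposite direction. With each shared CpG given equal weight the levels were 33.1% in H3K27me3 and 31.8% in H3K4me1, and the median was -1.08 points. With the runs summed, 114 of 3207 (3.55%) were higher, against 7.15% of all peaks tested, and 856 (26.7%) lower, against 30.8%. With run 1 in place of run 2, 24 of 2030 (1.18%) were higher, against 4.31%, and 277 (13.6%) lower, against 19.13%.

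The peak at Thsd4 (chr9:60516486-60523673) was furthest above H3K27me3, at 93.3% of 15 calls in H3K4me1 run 2 and 100% of 6 calls in run 1 against 23.9% of 1735 calls. Fisher's exact test gave an adjusted p of 3.87e-07 for run 2. At shared CpGs the difference at Thsd4 was 41.9 points in place of 69.5 and still passed. The peak inside Tmem266 was 69.3 points lower in H3K4me1, and at shared CpGs it was 3.07 points higher and did not pass. Serping1 was low here too, at 18.6% of 97 calls in H3K4me1 run 2 and 13.9% of 36 in run 1 against 71.7% in H3K27me3. Its levels in the H3K27me3 libraries of 20000 and 250000 cells were 69.6 and 71.7%.

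The merged list joined the peak lists of all H3K27me3 libraries, and most intermediate peaks came from the library without bisulfite, whose list held 94.8% of them against 93.5% of highly methylated peaks. Bisulfite lists held fewer as cells became fewer. The list of 100000 cells held 64.9% (Wilson 95% interval 63.6 to 66.1%) of intermediate and 34.4% of highly methylated peaks, that of 20000 cells 29.8 and 3.81%, and that of 4000 cells 0.954 and 0.0266%. The list of 250000 cells, whose calls chose the peaks, held 75.4 and 52.1%. Of all H3K27me3 peaks, the lists without bisulfite and of 250000, 100000, 20000 and 4000 cells held 94.3, 70.6, 60.8, 33.1 and 2.47%. Of lowly methylated peaks they held 95.2, 95.3, 92.7, 80.6 and 5.22%. In 20000 and 4000 cells the intermediate peaks were thus below the share of all peaks. Only in the list without bisulfite stood 1227 intermediate peaks (20.5%), and 310 (5.19%) stood only in bisulfite lists.

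Since intermediate peaks were wider and denser, the classes were compared in a linear fit over the 10786 CpG-poor peaks with log2 width and CpG density as covariates and errors clustered by chromosome. Intermediate peaks stood in the list of 100000 cells 14.9 ± 0.758 points (SE) more often than highly methylated ones. In that of 20000 cells they stood 9.91 ± 0.752 points more often. In the list without bisulfite they stood less often, by -3.33 ± 0.515 points (SE), and without the covariates 1.31 points more often. In 4000 cells the difference was 0.127 ± 0.080 points. Each list is of 1 library and peaks are not replicates of a library, so no p-values are given. Read depth was not a covariate. In the library whose calls chose the peaks, intermediate peaks had a median of 155 calls and highly methylated ones 57. The fit thus does not separate class from depth. With an overlap of 50% in place of 1 bp the difference was 16.6 points in 100000 and 1.22 points in 20000 cells.

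**Figure D5:**
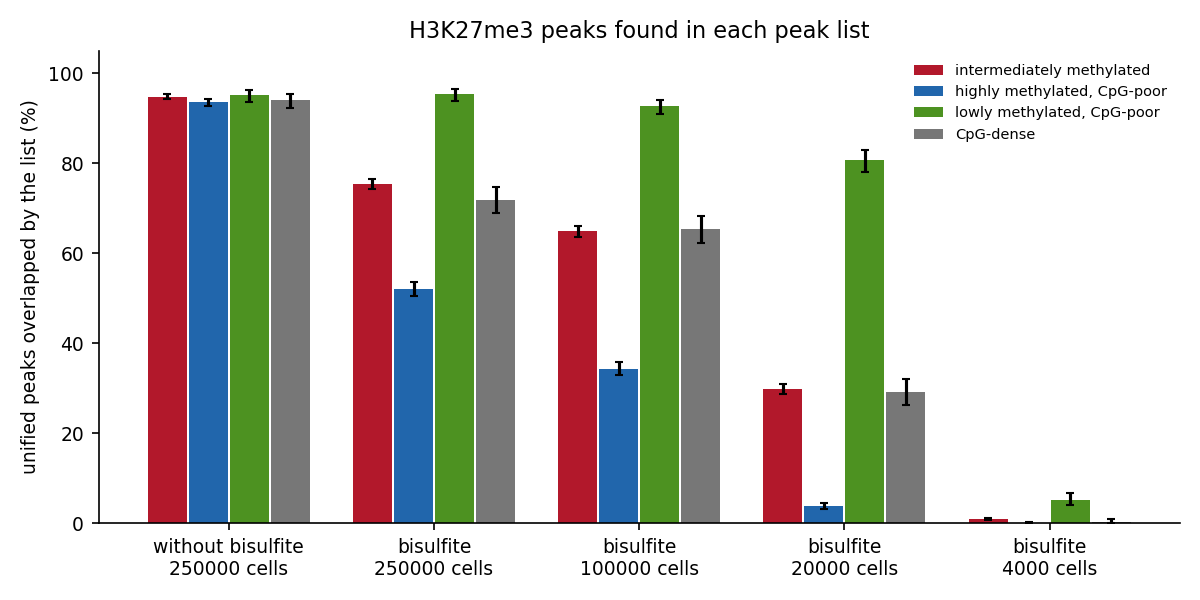
Share of merged H3K27me3 peaks (y axis, %) found in the peak list of each of 5 libraries (x axis), for 4 classes of peaks, with Wilson 95% intervals. Intermediate peaks go from 94.8% without bisulfite to 64.9, 29.8 and 0.954% in 100000, 20000 and 4000 cells, and highly methylated peaks from 93.5 to 34.4, 3.81 and 0.0266%.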

How the data were processed

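CUT&Tag-BS of H3K4me1, H3K9me3 and H3K27me3 in E14 cells gave 8 bisulfite and 3 other samples, grouped by mark, cell number and treatment. The authors deposited, per CpG and bisulfite library, raw counts of methylated calls and of all calls, not normalized, and a peak list per sample and per mark. The submitters' processing notes name cutadapt 1.12, Bismark 0.23.0, Bowtie2 2.3.0, HOMER 4.10.3, bedtools 2.29.2 and mm10. The treatment of duplicates is not given in the sources used here. Every count column was used (0 were left out). On chromosomes 1 to 19 the H3K27me3 libraries of 4000, 20000, 100000 and 250000 cells held 370744, 4934467, 24056602 and 36558653 calls. All 31396 entries of the RefSeq promoter table (GRCm38.p6), which cover 18 of the 19 chromosomes, had CGs at the count table's positions. Coordinates count from 1.

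A level is methylated calls over all calls, in percent, summed over CpGs. Calls of 1 fragment are not independent, so intervals cover counting error only, Fisher p-values are too small, and a test of 2 libraries compares those libraries. Run 1 and run 2 of a mark had the same state at 97.6% (H3K4me1) and 96.0% (H3K9me3) of CpGs called once in each, against 77.4 and 83.5% for calls within run 2, so they were treated as 1 library and run 2 was used. Python 3.11.15, numpy 2.4.6, pandas 2.3.3, scipy 1.17.1, statsmodels 0.14.6 and matplotlib 3.10.9 were used.

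Named peaks are the 8 with most calls in 100000 cells, overall and near protein-coding gene ends; the 3 with the largest and smallest SD of CpG levels; those with the largest called differences in each direction (4 per mark, 3 between cell numbers); up to 6 per gene list by calls; and those next to the level limits. Peaks of Pax7 and further peaks of Cacna1e and Cacna1i were chosen after their values were seen. Members and lists were chosen with earlier results of these data known. Alternatives tried were call minimums, level and density limits, shared CpGs, other runs, overlap, distances and covariates.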

Additional observations from a re-analysis of the deposited data

How the results depend on the processing

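The libraries lack replicates, and depth limits single peaks in 4000 cells, H3K4me1 and H3K9me3. No paired analysis was possible because the run numbers of H3K4me1 and H3K9me3 mark runs of 1 library and H3K27me3 has no numbers. Of the values that answer a comparison, 25 stayed within their error or threshold under an alternative, 58 moved, 1 became callable and 5 turned; the causes were not tested except where an alternative's own construction shows them.

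The summed level of intermediate peaks in 20000 cells, 100000 cells, H3K9me3 run 2 and H3K4me1 run 2 was 20.6, 42.2, 36.6 and 20.1% as the mean of CpG levels with 5 calls, 33.6, 35.1, 55.2 and 31.3% with 50 calls in 250000 cells, 46.1, 47.5, 64.1 and 41.0% under 15 CpGs per kb, and 32.8, 29.4, 45.6 and 24.8% at CpGs called in the 3 larger H3K27me3 libraries. With limits of 30 and 70% it was 41.1% in 20000 cells, 42.5% in 100000 and 36.2% in H3K4me1.

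Between 100000 and 20000 cells, limits of 30 and 70% gave 116 peaks higher in 100000 and 52 higher in 20000, and shared CpGs gave 29 and 145 with a median difference of -2.16 points, or -0.0734 with CpGs weighted equally, an alternative chosen after seeing the data. Against H3K9me3, 20 calls in both gave 149 higher, shared CpGs 157 higher and 6 lower, run 1 in place of run 2 62 higher, 11 lower and a median of 2.57 points, and equal weights a median of 1.29 points. Against H3K4me1, shared CpGs gave 112 higher, 39 lower and a median of 1.83 points, run 1 in place of run 2 24 higher and 277 lower, summed runs 114 higher, and equal weights a median of -1.08 points. At shared CpGs the difference at Tmem266 turned to 3.07 points, 11 other named differences no longer passed and 5 still did.

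Disagreement of calls in 20000 cells was 21.6% at 1 CpG and 41.8% between CpGs, and 24.0% at CpGs with exactly 2 calls in 100000 cells. CpG classes at or below 20%, in between and at or above 80% were 45.3, 24.7 and 29.97% with 5 calls and 72.3, 19.7 and 8.02% with 20. In the peak lists, the difference from highly methylated peaks without bisulfite turned to 1.31 points without covariates. In 4000 cells it was 0.927 points without covariates, in a fit that counts peaks as units. With an overlap of 50% it was -0.0246 points there. With 2500 bp as the distance to a gene end, 46.0% of peaks were near one, 26.3% inside and 27.7% between genes. Flanks without CpGs of any peak were at 75.5% in the nearest kb and 75.6% at 4 to 5 kb, and at 81.2% there in H3K9me3. With 250 bp windows isolated CpGs were at 79.1% and those with 8 or more neighbours at 24.8%. Within 50 kb, 12.5% of peaks had a CpG-dense, 14.4% a very wide and 80.8% any other H3K27me3 peak, 61.8% an H3K4me1 and 35.8% an H3K9me3 peak.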

Other observations

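Genes of small and long noncoding RNAs were also found under intermediate peaks. An intermediate peak overlapped 946 of 12408 long noncoding RNA genes (7.62%) and 30 of 1136 microRNA genes (2.64%), against 2633 of 20665 protein-coding genes (12.7%) and 176 of 8884 pseudogenes (1.98%); gene lengths differ between these kinds. The microRNA genes named here were chosen after their values were seen. Mir137, a microRNA gene active in neurons, lay in a peak (chr3:118425339-118437356) at 19.7% of 5112 calls in 100000 cells and 21.7% of 1009 in 20000. Mir34b and Mir34c, targets of p53, shared a peak (chr9:51100620-51105778) at 23.0% in 100000 and 22.9% in 20000 cells. Mir1a-1, a muscle microRNA, lay in a peak at 44.5% in 100000 and 38.2% in 20000 cells. Mir208a, a microRNA of heart muscle, lay in one at 63.9% in 100000 and 70.3% in 20000 cells. Other peaks moved more between the libraries, such as that of Mir692-3, at 26.8% of 127 calls in 100000 and 43.9% of 41 in 20000 cells.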
